A study of Mus musculus with 8 samples.

Results

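The annexins are a family of proteins that bind phospholipid membranes when calcium rises. The members described here were chosen by family name, with KO minus WT values of these same arrays in view, as Anxa1, Anxa2, Anxa3, Anxa4, Anxa5, Anxa6, Anxa7, Anxa11 and Anxa13. The platform annotation gave 8 of these 9 genes a probe set of their own, out of 18193 genes measured, and these 8 genes had 18 of the 45037 probe sets. The 1 probe set that names Anxa11 also names 2 predicted genes, so no value was assigned to Anxa11. The calls below are therefore a description of these genes, and nothing about the family as a group was tested.

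RNA came from whole hearts of female mice, 1 array per heart. At each of 4 and 10 weeks of age there were 2 MCK KO mice and 2 WT mice, all 4 of them littermates, which makes 4 groups of 2 and 8 arrays. MCK stands for muscle creatine kinase, whose promoter is active in heart and skeletal muscle cells, so a deletion driven by it leaves the gene in fibroblasts, vessels and immune cells of the heart. Values are log2 of the deposited intensities, on which a difference of 1 is a doubling, and a gene was called when its limma p, adjusted by Benjamini-Hochberg over all 18193 genes, was under 0.05. Replicates were separate mice of a litter, and with 2 arrays a group the arrays' number limits the precision, the median standard error of a KO minus WT difference being 0.15. Because the RNA is from whole tissue, more cells that express a gene and more RNA per cell cannot be told apart.

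Annexins share a core of repeated calcium-binding folds that docks on phosphatidylserine and other acidic lipids, and a variable N-terminal arm that binds partners such as the S100 proteins. In muscle they are known for sealing tears in the plasma membrane, where several of them gather at the wound, and in other cells for membrane traffic, for damping inflammation and for covering the surface of dying cells. They lie in fibroblasts, endothelium, leukocytes and cardiomyocytes in different proportions.

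The DNA just upstream of Anxa1, Anxa2 and Anxa5 is printed here because these genes were among those called higher at 10 weeks, and their start regions can be compared. The sequences are the 250 bases before the RefSeq transcript start in the GRCm38.p6 build, read 5′ to 3′ on the gene's strand. They lie at chr19:20390672-20390921 on the minus strand for Anxa1, at chr9:69453433-69453682 on the plus strand for Anxa2 and at chr3:36475888-36476137 on the minus strand for Anxa5. Capitals mark matches to any of 4 short motifs, searched on both strands.
Anxa1: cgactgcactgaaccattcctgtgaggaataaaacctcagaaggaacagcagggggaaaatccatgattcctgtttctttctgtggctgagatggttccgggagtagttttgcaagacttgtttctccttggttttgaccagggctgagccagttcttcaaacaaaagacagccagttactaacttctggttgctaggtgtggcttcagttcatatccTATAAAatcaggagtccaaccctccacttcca
Anxa2: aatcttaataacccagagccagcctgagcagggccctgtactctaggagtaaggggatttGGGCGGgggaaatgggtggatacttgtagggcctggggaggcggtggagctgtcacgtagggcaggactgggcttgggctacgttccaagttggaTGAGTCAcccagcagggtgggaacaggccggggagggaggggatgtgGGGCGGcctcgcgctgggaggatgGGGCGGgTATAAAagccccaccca
Anxa5: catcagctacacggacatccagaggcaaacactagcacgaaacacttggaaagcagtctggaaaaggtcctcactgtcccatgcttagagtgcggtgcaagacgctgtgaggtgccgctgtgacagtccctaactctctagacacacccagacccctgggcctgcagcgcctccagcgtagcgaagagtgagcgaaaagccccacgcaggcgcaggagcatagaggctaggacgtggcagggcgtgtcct

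The motifs were TGANTCA, bound by AP-1, GGGCGG, the GC box, TATAAA, the TATA box, and TTCNNNGAA, bound by STAT factors. Anxa1 held 1 TATA box, its first base 32 bases before the start, and 46% of its bases were G or C. Anxa2 held 1 AP-1 match at 95 bases, 3 GC boxes at 190, 48 and 24 bases and 1 TATA box at 17 bases before the start, with 62.4% G or C. Anxa5 held none of the 4 motifs and had 58.8% G or C, beside a median of 52.4% over all windows in the table. Across the 8 windows of the 6 members in the table, AP-1 was in 1, the GC box in 4, the TATA box in 2 and the STAT motif in 0. The Anxa7 windows overlap, and the GC box at 200 bases in one is that at 8 bases in the other, so it was counted in both. Of all 32851 windows, 6.75% held the AP-1 motif, 32.7% the GC box, 12.4% the TATA box and 7.02% the STAT motif. A match is a description of the letters and not of binding. The members with a window were Anxa1, Anxa2, Anxa4, Anxa5, Anxa7 and Anxa11.

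At 10 weeks the KO hearts had about double the WT level of Anxa1, Anxa2, Anxa3, Anxa4 and Anxa5. Anxa7 was higher by a smaller amount, Anxa13 was lower, and Anxa6 was not called. Thus 6 of the 8 measured genes were higher and 1 was lower, where 5.19% of all genes were called higher, 6.89% lower and 12.1% in either direction. The median difference over the 8 genes was 0.98, beside 0.00 over all genes. It was 0.47 when each gene's probe sets were averaged, and 0.34 over the 6 genes left when probe sets ending in _x_at, _s_at or _a_at were dropped. At 4 weeks 0 of the 8 were called, where 0.0275% of all genes were.

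**Figure D1:**
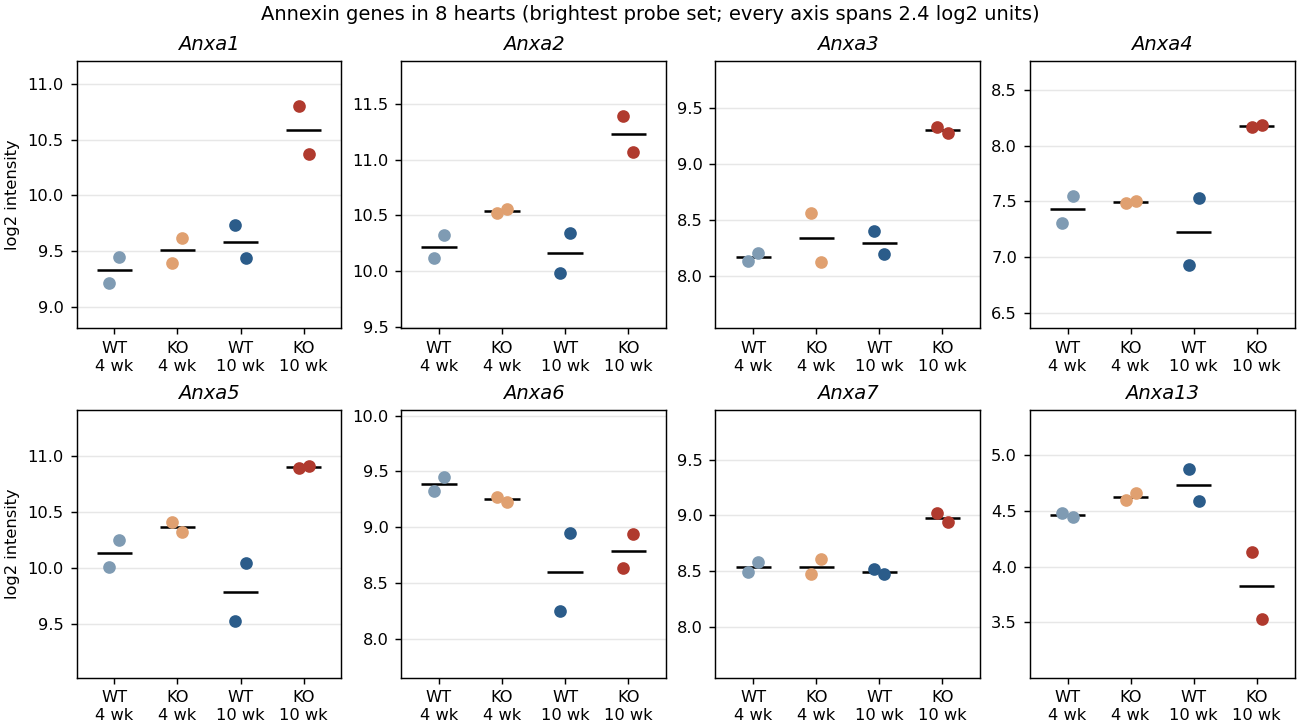
Log2 intensity of the brightest probe set of each of the 8 measured annexin genes (vertical axes, each spanning the same range) in WT and KO hearts at 4 and 10 weeks (horizontal axes). Each point is 1 heart and each bar the mean of 2 hearts; the 10-week KO points lie above both 10-week WT points for Anxa1, Anxa2, Anxa3, Anxa4, Anxa5 and Anxa7, below them for Anxa13 and among them for Anxa6.

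Anxa1 is the glucocorticoid-induced annexin that signals through formyl peptide receptors to limit leukocyte entry. Its log2 level was 9.73 and 9.44 in the WT hearts at 10 weeks and 10.80 and 10.37 in the KO hearts of that age. At 4 weeks it was 9.21 and 9.45 in WT and 9.39 and 9.62 in KO. The 10-week KO hearts were the highest of all 8, and the 4-week groups overlapped. The 10-week difference was 1.0 ± 0.18 (SE), a 2-fold rise, with a limma adjusted p of 0.00671. Without KO replicate 1 of 10 weeks, the heart with the highest Anxa1, it was 0.79 with an adjusted p of 0.0559.

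Anxa2 pairs with S100a10 into a tetramer that bridges membranes to actin and carries plasminogen and its activator on the cell surface. It measured 9.98 and 10.34 in WT at 10 weeks against 11.39 and 11.07 in KO. At 4 weeks the values were 10.12 and 10.32 in WT and 10.52 and 10.56 in KO. KO hearts lay above WT hearts at both ages, but by an amount that was called only at 10 weeks. The difference was 1.07 ± 0.16 at 10 weeks (2.1-fold, adjusted p 0.00306) and 0.32 ± 0.16 at 4 weeks (adjusted p 0.999). The 10-week call held with any 1 array left out, the difference then running from 0.89 to 1.25.

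Anxa5 covers exposed phosphatidylserine in a two-dimensional lattice, for which it serves as the usual stain for dying cells, and it slows clotting on such surfaces. Its values at 10 weeks were 9.52 and 10.04 in WT and 10.90 and 10.91 in KO. At 4 weeks they were 10.01 and 10.25 in WT and 10.41 and 10.32 in KO. The KO hearts were again above WT at both ages, and the 10-week WT mean of 9.78 was the lowest of the 4 groups. It had the largest 10-week difference of the 8 genes, 1.12 ± 0.17 (2.18-fold, adjusted p 0.00338), and ranked 252 among all genes by size of the rise. That call too held with any 1 array left out, at 0.86 to 1.39, the highest value being the fit without WT replicate 2 of 10 weeks.

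Anxa3 is abundant in neutrophils, where it sits on granules. Its values were 8.40 and 8.19 in WT and 9.33 and 9.28 in KO at 10 weeks. At 4 weeks they were 8.13 and 8.20 in WT and 8.56 and 8.12 in KO. The 10-week KO hearts agreed closely and stood above every other heart, whereas the 4-week KO hearts lay on either side of the WT pair. The 10-week difference was 1.01 ± 0.16 (2.02-fold, adjusted p 0.00359), and it stayed called with any 1 array left out, at 0.91 to 1.12. Anxa4 binds membranes as a self-assembling sheet and is best known from epithelia. It gave 6.93 and 7.53 in WT and 8.17 and 8.19 in KO at 10 weeks, and 7.31, 7.55, 7.49 and 7.50 in the 2 WT and 2 KO hearts at 4 weeks. The WT hearts of 10 weeks were the spread-out group, and both KO hearts exceeded them. Its difference of 0.95 ± 0.19 (1.93-fold, adjusted p 0.0102) was not called without KO replicate 1 (0.96, adjusted p 0.0615) or KO replicate 2 (0.94, adjusted p 0.0606) of 10 weeks. Without WT replicate 1 of 10 weeks, the lowest heart, it was 0.65 and still called.

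Anxa7, also called synexin, fuses secretory granules in the test tube and takes part in cardiomyocyte calcium handling. Its levels were 8.52 and 8.47 in WT and 9.02 and 8.94 in KO at 10 weeks, with 8.49 and 8.58 in WT and 8.47 and 8.61 in KO at 4 weeks. The 6 other hearts lay in a narrow band below the 10-week KO pair. The 10-week difference was 0.49 ± 0.12 (1.4-fold, adjusted p 0.0269), and it was called in 2 of the 8 fits that left out 1 array. The adjusted p was 0.0605 without either WT heart of 4 weeks, 0.0502 and 0.0509 without WT replicates 1 and 2 of 10 weeks, and 0.14 and 0.0786 without KO replicates 1 and 2 of 10 weeks. The difference itself stayed between 0.44 and 0.53 in all 8 fits.

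Anxa6 is the annexin with a duplicated core, abundant in heart muscle at the sarcolemma, where it marks and caps membrane wounds. It read 8.25 and 8.95 in WT and 8.63 and 8.94 in KO at 10 weeks. At 4 weeks it was 9.32 and 9.45 in WT and 9.27 and 9.23 in KO. The groups overlapped at 10 weeks, with WT replicate 1 as the lowest of the 8 hearts, and KO lay just below WT at 4 weeks. The 10-week difference was 0.19 ± 0.21 with an adjusted p of 0.688. It depended on single WT hearts: without WT replicate 1 of 10 weeks it was -0.16 (adjusted p 0.664), and without WT replicate 2 it was 0.54 (adjusted p 0.0493).

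Anxa13 is an epithelial annexin of gut and kidney, with a lipid-anchored form. It read 4.88 and 4.59 in WT and 4.13 and 3.53 in KO at 10 weeks, and 4.48, 4.45, 4.60 and 4.66 in the 2 WT and 2 KO hearts at 4 weeks. Both KO hearts were below both WT hearts at 10 weeks, and both were above them at 4 weeks. Every array had it under its own median, which ran from 5.10 to 5.22, so this is a change at the dim end of the scale. The 10-week difference was -0.90 ± 0.19 (adjusted p 0.0143), given with no fold because nothing in the values shows that the probe set was above background. Among genes of mean log2 level of at least 6, which leaves Anxa13 out, 6 of 7 annexins were higher and 0 lower. Of all genes at that level, 9.12% were called higher, 13.1% lower and 22.2% in either direction. Anxa13 was not called without WT replicate 1 (-0.76) or KO replicate 2 (-0.60) of 10 weeks. The summed intensity of 8 kidney and gut markers was 1077 in WT replicate 1 of 10 weeks, the heart with the highest Anxa13, and 352 in WT replicate 2. The KO hearts of that age had 231 and 251. At 4 weeks the sum was 298 and 414 in WT and 242 and 218 in KO. Every WT heart was above every KO heart in this sum. Kap, a kidney gene, led the sum and showed the same order by itself. A sum without Kap was not made. Kap was the 1 of the 8 called at 10 weeks, beside 12.1% of all genes, at -2.70 ± 0.63 (adjusted p 0.0218). Kap read 9.73 and 7.29 in WT and 5.80 and 5.83 in KO at 10 weeks. At 4 weeks it read 6.90 and 7.90 in WT and 5.96 and 5.61 in KO. The other 7 were not called at 10 weeks. Umod, Slc12a1, Cdh16 and Slc34a1 had -0.75 to -0.23, and Cdh17, Aqp2 and Vil1 had 0.02 to 0.12. Of the 8 markers, 6 had mean log2 levels under 6. The part of these marker differences in the Anxa13 result was not tested.

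**Figure D2:**
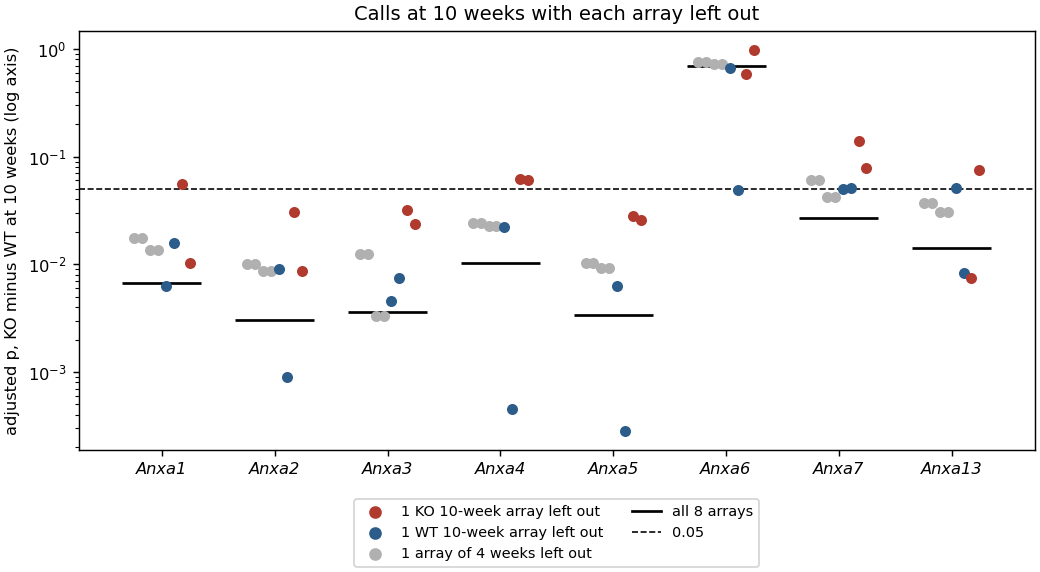
Adjusted p of the 10-week KO minus WT difference (vertical axis, logarithmic) for each measured annexin gene, with all 8 arrays (bar) and with 1 array left out in turn (points, coloured by the group that lost an array), and a dashed line at 0.05. All points of Anxa2, Anxa3 and Anxa5 lie under the line, 1 point of Anxa1 and 2 each of Anxa4 and Anxa13 lie above it, and 6 of 8 points of Anxa7 do.

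At 4 weeks the differences of the 8 genes ran from -0.14 for Anxa6 to 0.32 for Anxa2, with a median of 0.17 beside 0.01 over all genes. In limma each adjusted p was 0.999, and 0 of the 8 had an unadjusted p under 0.05, as 679 of all genes did. KO hearts lay above WT hearts in both replicates for Anxa2, Anxa5 and Anxa13, below for Anxa6, and the remaining 4 genes overlapped. How often all genes separate in this way was not counted, so this order of the hearts is a description only. These values bound the early change loosely, because a standard error of 0.12 to 0.21 was found for each gene.

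Whether the KO minus WT difference itself changed with age was asked with the difference of the 2 differences, 10 weeks minus 4 weeks. It was not called for any of the 8 genes, where 2.08% of all genes were called. The values were 0.82 ± 0.26 for Anxa1, 0.75 ± 0.23 for Anxa2, 0.84 ± 0.23 for Anxa3, 0.88 ± 0.26 for Anxa4 and 0.89 ± 0.25 for Anxa5, with adjusted p from 0.106 to 0.163. Anxa7 had 0.48 ± 0.17 and Anxa6 0.33 ± 0.30. Anxa13 had -1.07 ± 0.27 with the lowest adjusted p of the 8, 0.0883. All but Anxa6 had an unadjusted p under 0.05, 7 of 8, as 2535 of all genes did. Without WT replicate 2 of 10 weeks, Anxa2 (0.93, adjusted p 0.0295), Anxa4 (1.18, adjusted p 0.00619), Anxa5 (1.15, adjusted p 0.00727) and Anxa13 (-1.21, adjusted p 0.0265) were called, in a fit that called 8.79% of all genes. Without KO replicate 1 of 10 weeks, Anxa13 alone was (-1.37, adjusted p 0.0427), where 0.583% of all genes were.

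The ages were also compared within each genotype, where age and litter cannot be told apart. In WT hearts 0 of the 8 genes were called, where 0.115% of all genes were, and 1 of the 8 had an unadjusted p under 0.05, as 3285 of all genes did. That gene was Anxa6, at -0.79 ± 0.21 from 4 to 10 weeks (unadjusted p 0.00434, adjusted p 0.192). Without WT replicate 2 of 10 weeks it was -1.14 (adjusted p 0.00593), and Anxa4 (-0.50, adjusted p 0.0492) and Anxa5 (-0.61, adjusted p 0.0272) were called lower with it, in a fit that called 16.2% of all genes. In KO hearts 5 of the 8 genes were called higher at 10 weeks and 1 lower, where 3.42% of all genes were called higher, 7.07% lower and 10.5% in either direction. Anxa1 rose by 1.08 ± 0.18 (adjusted p 0.00596), Anxa3 by 0.97 ± 0.16 (adjusted p 0.00566), Anxa2 by 0.68 ± 0.16 (adjusted p 0.0291), Anxa4 by 0.68 ± 0.19 (adjusted p 0.0472) and Anxa7 by 0.44 ± 0.12 (adjusted p 0.0447). Anxa13 changed by -0.80 ± 0.19 (adjusted p 0.0291). Anxa5 had 0.54 ± 0.17 (adjusted p 0.0862) and Anxa6 -0.47 ± 0.21 (adjusted p 0.208). The count varied with single arrays: leaving out 1 gave 1 to 8 called genes, with 2 left without either WT heart of 4 weeks, without KO replicate 1 of 4 weeks or without KO replicate 1 of 10 weeks, 3 without KO replicate 2 of 10 weeks, 1 without KO replicate 2 of 4 weeks, and 8 without either WT heart of 10 weeks. Over all genes the calls moved with them, from 527 without KO replicate 2 of 4 weeks to 3035 without either WT heart of 10 weeks. Leaving out a WT heart does not alter the KO differences themselves, whose median over the 8 genes stayed 0.61. Only the spread shared over the groups and the adjusted p change then. The KO 10-week arrays serve in this comparison of ages and in the KO minus WT one, so the pair of them does not stand as separate support.

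A gene's probe sets read different stretches of its transcripts, and the further ones were fitted over all probe sets. Anxa3, Anxa5 and Anxa13 had 1 each. The 2 further probe sets of Anxa4 rose by 0.70 (adjusted p 0.0228) and 0.68 (adjusted p 0.0149) at 10 weeks. For Anxa7 one rose by 0.64 (adjusted p 0.0135) and a dimmer one had 0.32 (adjusted p 0.3). The further probe sets of Anxa1 and Anxa2 did not show the rise. That of Anxa1, with a mean log2 level of 3.61, had -0.10 (adjusted p 0.861), and those of Anxa2, with means of 6.29 and 2.87, had 0.18 (adjusted p 0.532) and -0.10 (adjusted p 0.734). When each gene's probe sets were averaged instead of taking the brightest one, Anxa1 had a difference of 0.45 and an adjusted p of 0.0785, and Anxa2 had 0.38 with an adjusted p of 0.0313, still called. The 4 probe sets of Anxa6 had 0.19, 0.18, -0.57 and -0.19, none of them called.

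**Figure D3:**
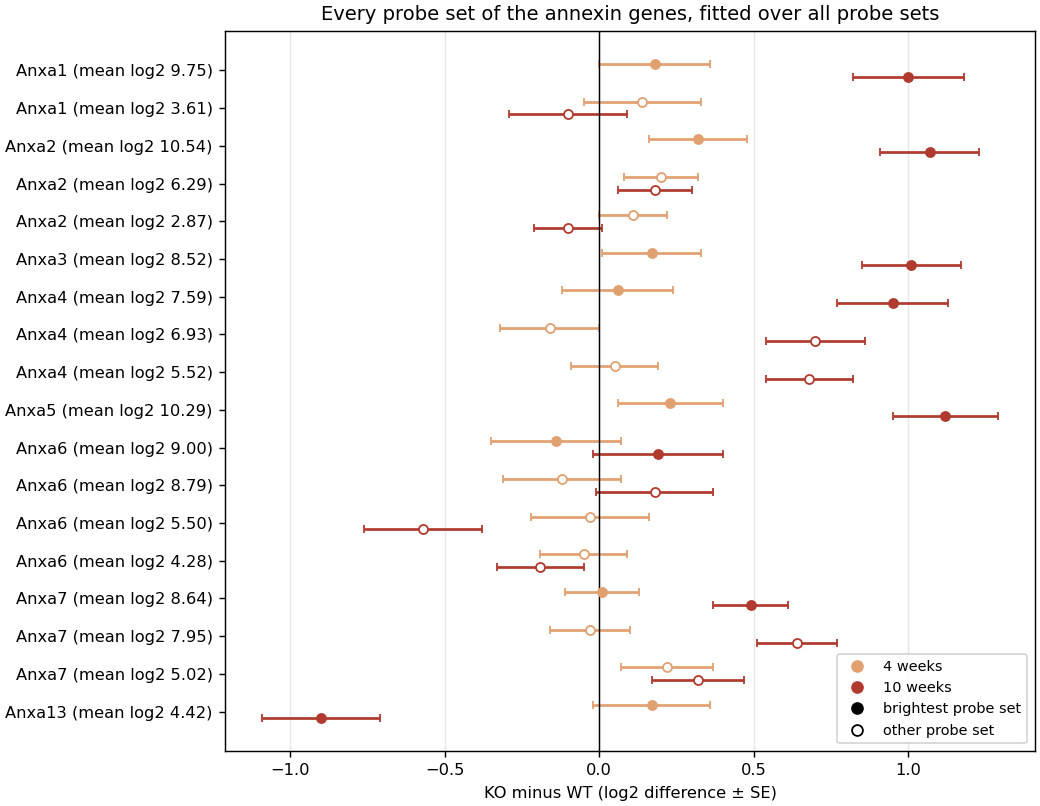
KO minus WT difference with its standard error (horizontal axis, log2) for each of the 18 probe sets of the measured annexin genes (vertical axis, with the mean log2 level over the arrays) at 4 weeks (light) and 10 weeks (dark), filled where the probe set is the brightest of its gene. The 3 probe sets of Anxa4 lie to the right at 10 weeks, while the further probe sets of Anxa1 and Anxa2 lie near 0.

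The other annexin genes on the array were Anxa8, Anxa9 and Anxa10, with 5 probe sets. Anxa8, best known from squamous epithelia, read 6.31 and 6.33 in WT and 7.16 and 6.58 in KO at 10 weeks, and 6.16, 6.08, 6.08 and 6.33 in the WT and KO hearts at 4 weeks. Both 10-week KO hearts were above every other heart, KO replicate 1 by the wider margin. The difference was 0.55 ± 0.18 with an adjusted p of 0.0897, and 0.84 with an adjusted p of 0.0205 without KO replicate 2. Anxa9 had -0.03 ± 0.16 and Anxa10 0.07 ± 0.22, and both were dim on all arrays, at 3.94 to 4.60 and 3.62 to 4.39. Neither was called in any of the fits that left out 1 array.

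Partners that annexins bind or act through moved unevenly. Of 14 such genes, 12 were measured, S100a11 and Fpr1 having no probe set of their own; at 10 weeks 2 were higher and 0 lower (16.7% called, beside 12.1% of all genes), with a median of 0.25. S100a6, a calcium-binding S100 protein that binds several annexins, read 9.04 and 8.92 in WT and 10.36 and 9.90 in KO at 10 weeks. It was above all other hearts in both KO hearts, and rose by 1.15 ± 0.18 (adjusted p 0.0038), a call that held with any 1 array left out. Pla2g4a, the cytosolic phospholipase that Anxa1 is known to restrain, rose by 1.14 ± 0.20 (adjusted p 0.00617). It was dim, at 6.13 and 5.93 in the KO hearts of 10 weeks and 4.45 to 5.07 in the others. Without KO replicate 1 of 10 weeks it had 1.05 and was not called. Among genes of mean log2 level of at least 6, 1 of 9 partners was called (11.1%, beside 22.2% of all such genes). Without probe sets ending in _x_at, _s_at or _a_at, 0 of 10 were, beside 10.6% of all genes.

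S100a10, the partner of Anxa2 in the tetramer, had its values on the other side. They were 10.42 and 9.62 in WT and 9.49 and 8.72 in KO at 10 weeks, and 9.49, 9.66, 9.61 and 9.98 in the 2 WT and 2 KO hearts at 4 weeks. Both KO hearts were below both WT hearts at 10 weeks, with KO replicate 1 just under WT replicate 2. The difference was -0.92 ± 0.30 with an adjusted p of 0.0811, not called, and its further probe sets had -0.65 and -0.13. Without WT replicate 2 of 10 weeks it was -1.32 (adjusted p 0.00927), and without KO replicate 1 it was -1.30 (adjusted p 0.0497). Fpr2, a receptor of Anxa1, was dim, at 4.48 and 4.53 in WT and 5.39 and 4.78 in KO, with a difference of 0.58 ± 0.19 (adjusted p 0.0823) that was 0.88 (adjusted p 0.0153) without KO replicate 2 of 10 weeks. Ahnak, the large scaffold that joins Anxa2 and S100a10 at the membrane, had 0.27 ± 0.16 (adjusted p 0.378), and 0.51 (adjusted p 0.0399) without WT replicate 2 of 10 weeks.

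Among 18 genes of plasma membrane repair, 2 were higher, 1 lower and 15 not called at 10 weeks, with a median of 0.13. The share called, 16.7%, was near the 12.1% of all genes. Pdcd6ip, which brings the membrane-cutting ESCRT machinery to wounds, rose by 0.77 ± 0.17 (adjusted p 0.0169), but its further probe sets had 0.22, 0.52, -0.10 and 0.26, and it was not called without WT replicate 1 (0.55, adjusted p 0.0616) or KO replicate 2 (0.62, adjusted p 0.119) of 10 weeks. Myof, a relative of dysferlin, rose by 0.51 ± 0.13 (adjusted p 0.0325), and was called in 1 of the 8 fits that left out 1 array, that without WT replicate 2 of 10 weeks. Ehd1, a membrane-remodelling ATPase, had -0.71 ± 0.15 (adjusted p 0.013) and from -1.16 to -0.65 in its 3 further probe sets. Without KO replicate 1 of 10 weeks it had -0.55 (adjusted p 0.0962).

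Dysf, dysferlin itself, read 6.50 and 7.24 in WT and 6.65 and 6.66 in KO at 10 weeks, a difference of -0.21 ± 0.21 (adjusted p 0.625) in groups that overlapped. It was -0.58 (adjusted p 0.0263) without WT replicate 1 and 0.15 without WT replicate 2 of 10 weeks. Trim72, the muscle protein MG53 that starts the repair patch, was dim on its probe set, at 4.15 to 4.57, and had 0.10 ± 0.15 (adjusted p 0.791). For the whole list the median was 0.20 without WT replicate 2 of 10 weeks and 0.05 without WT replicate 1. It was 0.14 without KO replicate 1 and 0.07 without KO replicate 2, and the calls changed with the array left out.

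Of 19 genes that expose phosphatidylserine or clear cells that show it, 18 were measured, and 1 was higher and 0 lower at 10 weeks, with a median of 0.21. The share called higher, 5.56%, was near the 5.19% of all genes. The higher gene was Itgb5, the integrin subunit that binds the bridging protein Mfge8 on dying cells. It read 8.93 and 8.96 in WT and 9.91 and 9.91 in KO, against 9.11, 9.18, 8.91 and 9.22 in the 2 WT and 2 KO hearts at 4 weeks. The 2 KO hearts of 10 weeks stood alone above the other 6. The rise was 0.97 ± 0.13 (adjusted p 0.00191), from 0.82 to 1.10 in its 3 further probe sets and from 0.95 to 0.98 with any 1 array left out, and its difference of differences was called too, at 1.04 ± 0.19 (adjusted p 0.0294). Of 16 other proteins that bind phospholipid in a calcium-dependent way, 1 was higher and 0 lower, a share of 6.25% that was near the background too, with a median of 0.16. It was Cpne8, a copine of mean log2 level 5.44, at 0.84 ± 0.16 (adjusted p 0.00859), with -0.07 and 0.22 in its further probe sets. Without KO replicate 1 of 10 weeks Cpne8 had 0.62 and was not called. Without WT replicate 2 of 10 weeks, 4 genes of the first of these lists and 2 of the second were called higher, and the annexin partners had 3 higher and 2 lower, in a fit that called 17.8% of all genes. Without KO replicate 1 of 10 weeks the median of the partners was 0.13, and without KO replicate 2 it was 0.35, with other calls in each. At 4 weeks 0 genes of these 4 lists were called.

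**Figure D4:**
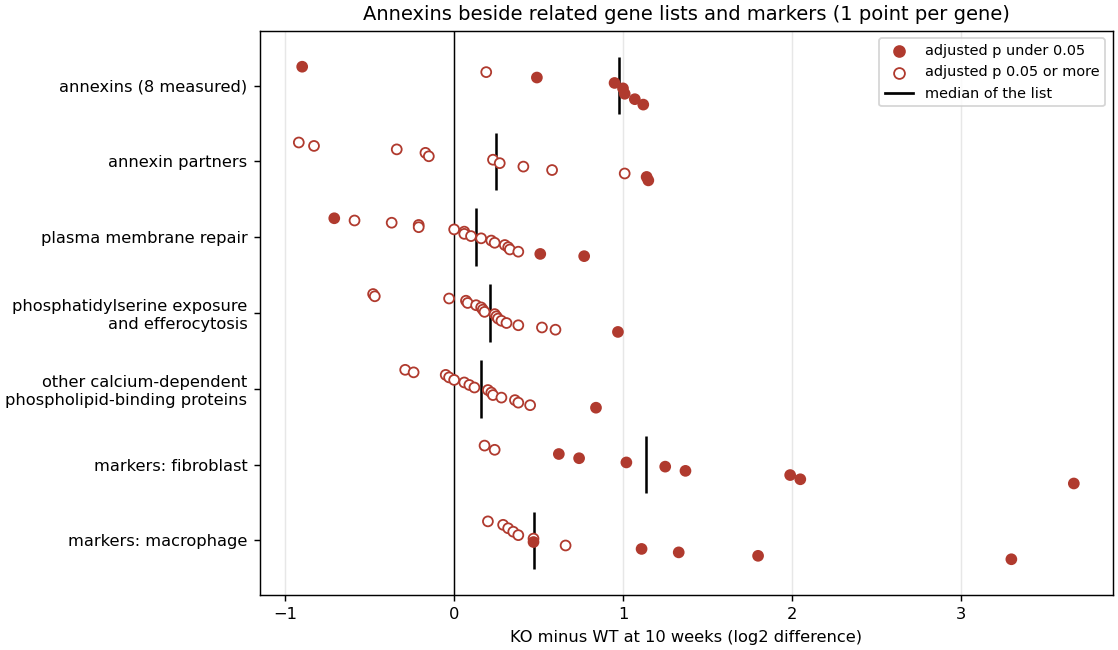
KO minus WT difference at 10 weeks (horizontal axis, log2) of every measured gene (points, filled where the adjusted p is under 0.05) in the annexins, 4 related lists and the fibroblast and macrophage markers (vertical axis), with each list's median as a bar. The annexin median is 0.98 and the medians of the related lists are 0.13 to 0.25, while the fibroblast markers have 1.13 and the macrophage markers 0.47.

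Markers of cell types that hold annexins moved at 10 weeks too. Over all genes, 5.19% were called higher, 6.89% lower and 12.1% in either direction. Of 10 fibroblast markers, 8 were called higher (80%), with a median of 1.13, led by Postn at 3.67 ± 0.20 (adjusted p 2.29e-05). Pdgfra (0.24, adjusted p 0.545) and Ddr2 (0.18, adjusted p 0.681) were not called. The summed intensity of the fibroblast markers was 6593 to 8802 in WT and 21264 to 21721 in KO at 10 weeks. At 4 weeks it was 11532 to 13565 in WT and 13315 to 14611 in KO. The KO hearts had the most and the WT hearts of 10 weeks the least. Of 12 macrophage markers, 5 were higher (41.7%), with a median of 0.47, led by Lgals3 at 3.30 ± 0.26 (adjusted p 0.0001). Those not called were Cd14, Itgam, Lyz2, Fcgr1, C1qa, C1qb and Cd163, at 0.20 to 0.66. The sum of the macrophage markers was 5043 to 5650 in WT and 8932 to 10786 in KO at 10 weeks. At 4 weeks it was 4519 to 5659 over both genotypes. The macrophage markers Itgam and Fcgr1 had mean log2 levels under 6. With any 1 array left out, 6 to 8 fibroblast and 4 to 6 macrophage markers were called higher.

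The neutrophil markers were called in 0 of 5, but their sum was 3552 in KO replicate 1 of 10 weeks and 248 in KO replicate 2. In WT hearts of 10 weeks it was 307 to 450. S100a8 and S100a9 led the sum in KO replicate 1, at log2 levels of 10.94 and 10.43, with 5.71 and 4.96 in KO replicate 2. Csf3r, Cxcr2 and Mmp9 had 5.86 to 6.27 in KO replicate 1 and 5.46 to 6.08 in the WT hearts of 10 weeks. KO replicate 1 had the highest Anxa1, Anxa2, Anxa3, Anxa7, Anxa8 and Anxa10 of the 8 hearts. KO replicate 2 had the highest Anxa4 and Anxa5. Without KO replicate 1 the 10-week difference was 0.91 (adjusted p 0.0303) for Anxa2 and 0.99 (adjusted p 0.0316) for Anxa3, both still called, and 0.79 (adjusted p 0.0559) for Anxa1. The neutrophil median was then -0.15, and without KO replicate 2 it was 0.37, beside 0.23 with all arrays. Csf3r, Cxcr2 and Mmp9, among those markers, had mean log2 levels under 6. Endothelial markers gave 2 higher of 8 (25%, beside 5.19% of all genes), with a median of -0.10 and a sum of 2019 to 2768 over all hearts. Cardiomyocyte markers gave 1 higher and 3 lower of 9 (44.4% called, beside 12.1% of all genes). The dimmest, Ryr2, had a mean log2 level of 10.00, so the defining markers of heart muscle were bright. With 1 array left out, the median ran from -0.31 to 0.16 for the endothelial and from -0.26 to -0.23 for the cardiomyocyte markers. The calls in both lists changed with the array left out. Of 7 liver markers 0 were called, with a median of -2.11, and their sum ran from 703 to 5653 in WT and from 467 to 567 in KO at 10 weeks, and from 404 to 5531 over the 4-week hearts. Of 6 atrial markers, Nppa was higher (1.04 ± 0.24, adjusted p 0.0222) and Sln lower (-2.35 ± 0.48, adjusted p 0.012) at 10 weeks, and their median at 4 weeks was 1.27 with 0 called. Of 3 red blood cell markers, Slc4a1 was lower, at -1.15 ± 0.15 (adjusted p 0.00133). The part of these cell types and tissues in the annexin differences was not tested.

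**Figure D5:**
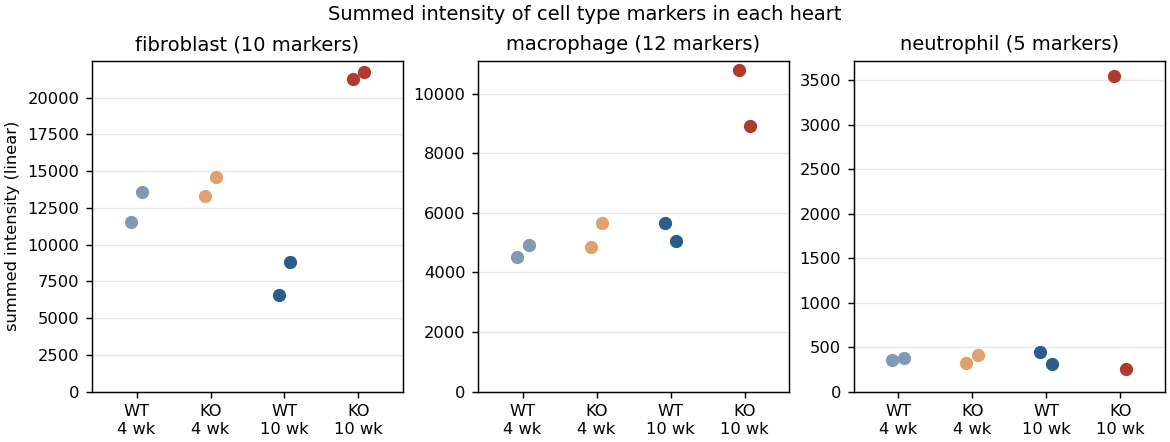
Summed linear intensity of the fibroblast, macrophage and neutrophil markers (vertical axes, each from 0) in WT and KO hearts at 4 and 10 weeks (horizontal axes), with 1 point per heart. Both 10-week KO hearts lie above the other 6 for fibroblast and macrophage markers, and KO replicate 1 alone does for neutrophil markers. S100a8 and S100a9 led the neutrophil sum in that heart.

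Genes whose level ran closest to an annexin's over the 8 arrays were sought among 9321 genes of mean log2 level of at least 6, by Pearson's r, as a description in which the 10-week KO arrays carry most of the spread. Closest to Anxa5 were Ednrb (r = 0.997), Msn (0.988), Mau2 (0.986), Gpc4 (0.985) and Cygb (0.985). Ednrb, an endothelin receptor, rose by 1.32 ± 0.21 at 10 weeks, Msn, the actin-membrane linker moesin, by 1.70 ± 0.24, Gpc4, a glypican, by 0.77 ± 0.16 and Cygb, cytoglobin, by 0.73 ± 0.14, with adjusted p from 0.00199 to 0.0117. Mau2, a cohesin loader, had 0.16 ± 0.11 (adjusted p 0.474). Closest to Anxa2 were Eef1a1 (r = 0.996), Gda (0.985), Svep1 (0.983), Elovl1 (0.982) and Slc30a4 (0.977). These 5 rose by 0.67 ± 0.14, 0.81 ± 0.18, 1.85 ± 0.15, 0.89 ± 0.14 and 0.86 ± 0.15, with adjusted p from 0.000138 to 0.0185.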

How the data were processed

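Per the submitters' processing notes, the authors made the deposited values with GCOS 1.3 and RMA, whose order and RMA version are not given in the sources used here. Per the labels, RNA was extracted with TRIzol and labelled with biotin. The deposited intensities were linear, with array medians of 34.3 to 37.4, and their log2 was taken here with no pseudocount. RMA makes array distributions alike, so levels are relative within an array. After 64 control probe sets were left out, 34945 probe sets named 1 gene, and each gene was given its probe set of highest mean. limma 3.58.1 (R 4.3.3) fitted 1 mean per group to all 8 arrays, with eBayes, 4 residual degrees of freedom and two-sided tests. The script was tested on simulated data. Members and lists were chosen with earlier results of these data known. Named were all members and the other annexins, up to 4 called genes per list (or the 2 of smallest p), S100a10, S100a11, Fpr1, Fpr2, Dysf, Trim72 and Ahnak, and the 5 genes most like each of the 2 annexins of largest 10-week difference; cell type markers with values were named after these were seen. Replicate numbers were not treated as pairs: the labels do not say that they pair mice, and the correlation of replicate differences between genotypes was 0.30 at 4 weeks and 0.23 at 10 weeks over 18193 genes, with only 2 pairs. Alternatives covered probe set choice, normalization, the filter on dim probe sets, variance settings, the arrays in the fit, the replicate block and leaving out each array. The targeted gene is not reported here.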

Additional observations from a re-analysis of the deposited data

Results flagged for a closer look

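The KO minus WT difference of Anxa13 had opposite signs at the 2 ages in every heart: both KO hearts were above both WT hearts at 4 weeks (0.17 ± 0.19) and below them at 10 weeks (-0.90 ± 0.19). How often all genes show such a reversal was not counted. The difference of these differences was -1.07 ± 0.27, with a limma unadjusted p of 0.00306 and an adjusted p of 0.0883, so it was not called. Over the fits that left out 1 array it was called without WT replicate 2 (-1.21, adjusted p 0.0265) and without KO replicate 1 (-1.37, adjusted p 0.0427) of 10 weeks. The probe set lay at the 7.54 to 26.4 percentile of its array among the brightest probe sets of the 18193 genes.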

How the results depend on the processing

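The number of annexin genes called at 10 weeks, 7 of 8, was 4 when only the groups compared were fitted and 4 when probe sets ending in _x_at, _s_at or _a_at were left out, which removed every probe set of Anxa4 and Anxa5. With each array left out in turn it was 4 to 7 (1154 to 3244 over all genes), and for age in KO hearts (6), the difference of differences (0) and age in WT hearts (0) it was 1 to 8, 0 to 4 and 0 to 3. Age in KO was 3 with the arrays centred on their medians. The replicate block changed no count of called annexins (7 at 10 weeks), and over all genes gave 2682 calls in place of 2199 at 10 weeks. Without those probe sets Anxa2 rests on a dim one and had -0.10 at 10 weeks, -0.21 for the difference of differences, 0.19 for age in WT and -0.02 for age in KO, and Cpne8 had -0.07. With each gene's probe sets averaged, Anxa4 had -0.01 at 4 weeks, Anxa6 -0.10 at 10 weeks and -0.01 for the difference of differences, and Anxa2 0.10 for age in WT. Quantile normalization again gave 0.00 for Anxa2 and 0.12 for Anxa7 for age in WT, and centring gave -0.01 for Anxa7 at 4 weeks. Small differences changed sign with 1 array left out: at 4 weeks Anxa3 ran from -0.05 to 0.40, Anxa4 from -0.06 to 0.18 and Anxa7 from -0.06 to 0.07. For age in WT, Anxa2 ran from -0.24 to 0.12, Anxa4 from -0.50 to 0.10 and Anxa7 from -0.08 to 0.01. At 10 weeks Anxa6 ran from -0.16 to 0.54, Anxa9 from -0.20 to 0.15, Anxa10 from -0.32 to 0.45, Dysf from -0.58 to 0.15 and Trim72 from -0.08 to 0.27, and the difference of differences of Anxa6 ran from -0.02 to 0.68. Over the single-gene differences and all alternatives, 851 values kept direction and side of the threshold, 72 were no longer called, 24 became called and 28 changed sign. The 10-week call was lost for Anxa4 (adjusted p 0.0615), Anxa7 (0.114) and Anxa13 (0.0853) with only the groups compared, and for Anxa7 with trend and robust settings (0.0632) and array weights (0.0709). Quantile normalization again moved the share of called genes that were higher with age in KO from 32.6% to 45.5%. Beyond those cases the cause of a change was not tested. Low signal limits Anxa13, Anxa9, Anxa10, Fpr2, Trim72, Pla2g4a and Cpne8, and 2 hearts a group allow no test of an outlying heart.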
